A study of Rattus norvegicus with 12 samples.

Results

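White adipose tissue of rats eating less and of rats with reduced growth hormone (GH) was set together against that of freely fed rats, to find genes that differed from the control in the same direction under both. The comparison takes the 8 arrays titled for caloric restriction (CR) or for an antisense GH transgene (Tg) against the 4 arrays titled ad libitum (AL), so it uses all 12 arrays of the series. A probe set was kept as shared when its mean differed from AL with the same sign in CR and in Tg. AL rats and CR rats were Jcl:Wistar (-/-) animals without the transgene, and CR rats received 70% of the energy intake from 6 weeks of age. Tg rats were transgenic dwarf animals, heterozygous for the antisense GH transgene, and ate ad libitum. The genotype field reads (-/-) for the Tg arrays as well, so groups were taken from titles and source names. All rats were killed at 24 weeks of age, on the morning after an evening feed. No label names the promoter that drives the transgene. Each array carries RNA of epididymal fat from 1 sample labelled as a biological replicate, with no mention of pooling.

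GH is released by the pituitary and acts on fat cells through the receptor encoded by Ghr, which signals through JAK2 and STAT5, favours the release of stored fat and induces Igf1. Caloric restriction lowers the supply of energy from food and is the best studied means of lengthening life in rodents, and rodents with little GH also live long. White fat holds adipocytes that store triglyceride, and around them macrophages, lymphocytes, endothelial cells and fibroblasts, all of which give RNA to a whole-tissue array.

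The array values were linear intensities with array medians between 222.6 and 239.4, and every level below is the log2 of such an intensity. CR3 had the highest background, 58.5 against 34.5 to 44.1 on the other arrays, and 5.71% of its probes were blank. The number of arrays, 4 a group, limits the precision. The adipocyte genes Adipoq, Fabp4 and Plin1 were bright on all 12 arrays, at 14.59 to 15.04, 14.98 to 15.49 and 13.60 to 14.05. Gh1, the gene for GH, lay between 6.85 and 7.38 on all arrays, and fat is not its site of synthesis, so it does not check the Tg label. Markers of neighbouring organs stood out on single arrays: exocrine pancreas genes averaged 12.64 on Tg1 against 6.56 to 7.21 elsewhere, and caput epididymis genes 12.54 on CR4 against 6.06 to 7.66 elsewhere. Spermatid genes averaged above 10 on AL1, AL2, CR1 and Tg2. Sample descriptions carry 1 code per group; should it stand for a session of work, its effect and that of the group cannot be told apart.

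No probe set differed between the 8 arrays and AL past an adjusted p of 0.05 in limma with the same sign in each group: 0 of 23281 tested were called higher and 0 lower, or 0%. At an unadjusted p under 0.05, 2356 probe sets (10.1%) differed in either direction, of which 868 (3.73% of those tested) were higher in both groups and 1382 (5.94%) were lower in both. By sign alone 30.6% of the probe sets were higher in both, 32.6% lower in both and 36.8% opposite. The lowest adjusted p was 0.0527. The count of 0 depended on how the arrays were handled. Without CR4, 11 probe sets passed as higher and 7 as lower, and with probe z-scores summarised by median polish 0 passed as higher and 4 as lower. Without AL2, Tg1 or Tg2, 1 passed as lower. In the same model CR alone differed from AL at 338 probe sets (1.45%), 148 higher and 190 lower, a count that lay between 44, without AL4, and 283, without CR4, when 1 array was left out. Tg alone differed from AL at 0 (0%), with 1385 (5.95%) at an unadjusted p under 0.05. CR differed from Tg at 291 (1.25%). When same-numbered CR and Tg arrays were paired, a pairing that the titles do not state, it was 95 (0.408%), 59 of them shared with the 291. CR and Tg are set against the same AL arrays, so values in each are given side by side for most genes and their sharing a sign is the selection rule.

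Candidate shared differences are described through the probe sets in which all 8 arrays lay on the same side of the 4 AL arrays. Array order alone would put some probe sets there. With no difference between the groups, a fraction of 0.00202 of probe sets would be expected above AL, and the same fraction below. Whether the counts exceed this share was not tested. All 8 lay above AL at 70 probe sets (0.301% of those tested) and below AL at 113 (0.485%). These named 46 and 91 genes. The differences were small, with a median of 0.26 for the higher ones and -0.38 for the lower ones on the log2 scale. Among the higher ones the median was 0.30 in CR and 0.24 in Tg, and among the lower ones -0.41 and -0.32. The selection required each CR and each Tg array to lie beyond AL, so these medians do not show that Tg generally followed CR. Among the 148 probe sets called higher in CR alone, the median was 0.62 in CR and 0.03 in Tg. Among the 190 called lower in CR alone, it was -0.53 and -0.17. Both groups differed by at least 1.5-fold at 1 of the 70, Acsm1 (0.0043% of those tested), and at 4 of the 113 (0.0172%), which were Osgin2, Suco and a pair of unnamed probe sets. Of the genes apart from AL, the 8 with the smallest p in each direction are described next.

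The leading gene in each direction is shown with the 250 bases before its transcription start, from RefSeq on GRCr8, since these are the promoters of the genes that head the 2 directions. Capitals mark matches, on either strand, to the searched motifs, which were the E-box CACGTG, the STAT element TTCNNNGAA, the CCAAT box, the CACCC box and the cyclic AMP element TGACGTCA. Oxnad1 is at chr16:7299505-7299754 on the plus strand and Grb14 at chr3:70091922-70092171 on the minus strand, both printed 5′ to 3′ in the direction of the gene.
Oxnad1: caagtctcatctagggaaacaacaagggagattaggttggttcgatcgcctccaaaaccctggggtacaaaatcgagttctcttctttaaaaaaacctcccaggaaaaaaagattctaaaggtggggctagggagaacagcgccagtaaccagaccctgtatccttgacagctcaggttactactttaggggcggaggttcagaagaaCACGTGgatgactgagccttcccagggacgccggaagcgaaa
Grb14: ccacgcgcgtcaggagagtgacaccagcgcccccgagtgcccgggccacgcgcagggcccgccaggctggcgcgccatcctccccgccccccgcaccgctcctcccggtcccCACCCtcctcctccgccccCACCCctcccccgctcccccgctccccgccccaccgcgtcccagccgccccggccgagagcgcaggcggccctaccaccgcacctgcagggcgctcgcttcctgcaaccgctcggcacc
The Oxnad1 sequence holds 1 CACGTG, which 5.59% of 33469 promoters hold in the same window, and the Grb14 sequence holds 2 CACCC, a motif present in 49.2% of promoters. These motifs overlap no other match, and none of the other searched motifs is in either window. Such matches describe the letters and show no binding.

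Grb14, an adaptor that binds the activated insulin receptor and restrains its signalling, had the smallest p among the genes apart from AL. It read 11.08, 10.79, 11.23 and 11 on the AL arrays, 9.56, 9.71, 9.68 and 9.64 on the CR arrays and 10.76, 10.07, 10.70 and 10.55 on the Tg arrays. All 8 CR and Tg arrays were below all 4 AL arrays, by as little as 0.02 between AL2 and Tg1, and CR was below Tg throughout. The combined difference was -0.94 (SE 0.12), 1.92-fold lower, with a limma adjusted p of 0.0527. It passed in 7 of 26 alternative settings, among them those without CR4 (0.028) and without Tg2 (0.0146). Over the 26 the adjusted p ran from 0.00348 to 0.72. Grb14 fell by 1.38 in CR (adjusted p 0.00314) and was at -0.50 in Tg (adjusted p 0.62). CR and Tg differed by -0.87 (adjusted p 0.0186), and pairing the same-numbered CR and Tg arrays gave 0.0584.

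Arhgap30 was the next. It read 9.26, 9.35, 9.51 and 9.52 in AL, 8.81, 8.77, 8.73 and 8.84 in CR and 8.97, 8.99, 9.17 and 9.08 in Tg. The 3 groups did not overlap, with CR lowest and Tg between. The combined difference was -0.49 (SE 0.07, adjusted p 0.0527), made of -0.62 in CR (adjusted p 0.00515) and -0.36 in Tg (adjusted p 0.456). Without CR4 the combined adjusted p of Arhgap30 was 0.028. Over 26 alternative settings it ran from 0.00887 to 0.72, and 5 of them passed. Ramp1, which pairs with the calcitonin receptor-like receptor to form the receptor for the neuropeptide CGRP, was 11.69 ± 0.03 (SD, n = 4) in AL, 11.29 ± 0.09 in CR and 11.45 ± 0.04 in Tg. Its combined difference was -0.32 (SE 0.05, adjusted p 0.0892), and its lowest AL array stood 0.15 above its highest CR or Tg array.

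Genes of leukocytes were among the 8 on the lower side. Ptprc, the leukocyte common antigen CD45, read 10.25, 10.23, 10.43 and 10.38 in AL, 9.56, 9.69, 9.31 and 9.77 in CR and 10.13, 10.01, 10.08 and 9.99 in Tg. The groups again did not overlap, with Tg close under AL. Its combined difference was -0.50 (SE 0.08, adjusted p 0.0976), and it fell by 0.74 in CR (adjusted p 0.00678) beside -0.27 in Tg (adjusted p 0.698). CR and Tg differed by -0.47 (adjusted p 0.0395, or 0.0922 with same-numbered CR and Tg arrays paired). Itgb2, the CD18 chain of the leukocyte integrins, read 10.23, 10.32, 10.34 and 10.40 in AL, 9.92, 9.91, 9.89 and 10.03 in CR and 9.86, 9.85, 10.07 and 10.13 in Tg. Here CR and Tg lay at the same level, and their difference was -0.04 (SE 0.08). The combined difference was -0.37 (SE 0.07, adjusted p 0.116). Fmnl1, a formin of blood cells that shapes actin, was at -0.35, Adap2, an ARF GTPase activator, at -0.33 and Tm6sf1 at -0.50, with adjusted p from 0.107 to 0.108. All 3 fell in CR, at -0.43, -0.38 and -0.64 (adjusted p 0.0174 to 0.0258). In Tg they were at -0.26, -0.28 and -0.36 (adjusted p 0.551 to 0.62).

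Of the genes with all 8 arrays above AL, Oxnad1 had the smallest p. It read 9.11, 9.12, 9.22 and 9.16 in AL, 9.69, 9.57, 9.54 and 9.62 in CR and 9.27, 9.35, 9.31 and 9.44 in Tg. CR was highest and Tg lay between, with no overlap. The combined difference was 0.32 (SE 0.05, adjusted p 0.0976), with 0.46 in CR (adjusted p 0.00766) and 0.19 in Tg (adjusted p 0.67). Acsm1, a mitochondrial enzyme that activates medium-chain fatty acids, read 6.73, 6.74, 7.35 and 7.38 in AL, 7.87, 8.06, 8 and 7.44 in CR and 7.94, 7.87, 7.68 and 7.66 in Tg. The AL arrays themselves fell into a lower and a higher pair, and CR4 stood only 0.06 above the highest of them. Acsm1 was 1.70-fold higher, at 0.77 (SE 0.16, adjusted p 0.186), with 0.79 in CR and 0.74 in Tg, nearly equal shares.

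Fads1, the delta-5 desaturase that makes arachidonic acid, read 9.94, 10.26, 10.03 and 10.03 in AL, 11.30, 11.29, 10.51 and 10.84 in CR and 10.60, 10.32, 10.32 and 10.35 in Tg. The Tg arrays were just above AL, and the CR arrays reached further up. Fads1 rose by 0.92 in CR (adjusted p 0.0258), and the value in Tg was 0.33 (adjusted p 0.827). Pdgfc, a ligand of the platelet-derived growth factor receptors, was higher by 0.45 (SE 0.09, adjusted p 0.181), with 0.55 in CR and 0.34 in Tg. Ptprs, a receptor tyrosine phosphatase, was higher by 0.31 on its brightest probe set, and all 3 of its probe sets lay above AL on all 8 arrays. Pdxkl1, Trpt1, a tRNA phosphotransferase, and the RNA-binding protein gene Rbpms2 made up the 8, at 0.44, 0.46 and 0.23. These 3 were at 0.58, 0.66 and 0.24 in CR and at 0.30, 0.25 and 0.22 in Tg.

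**Figure D1:**
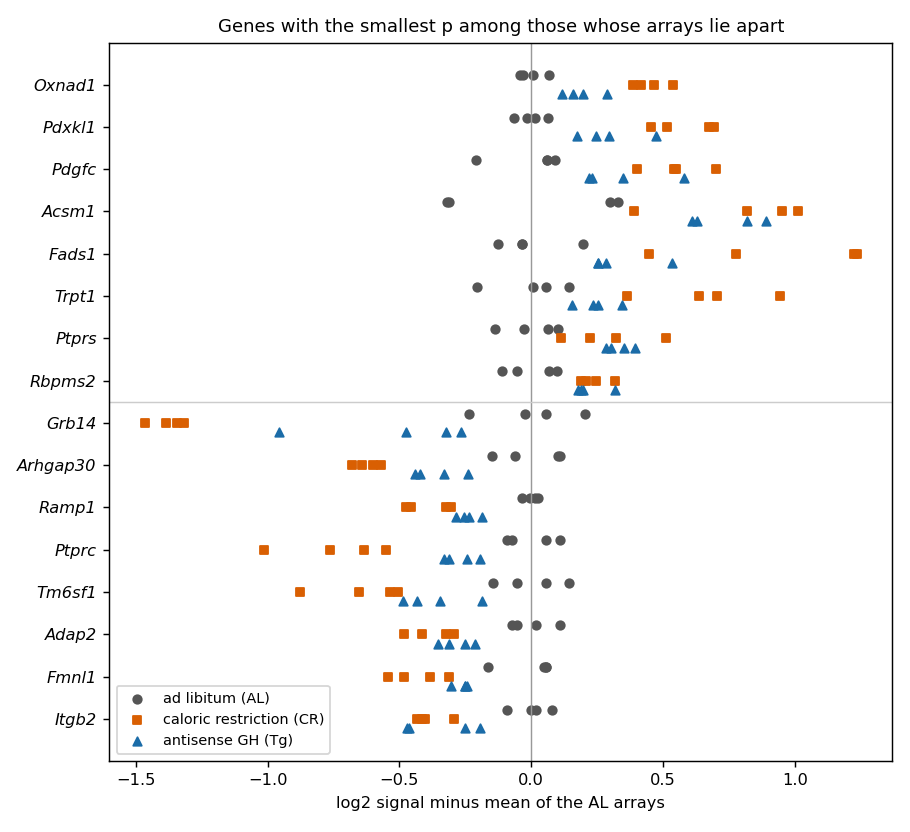
Each point is 1 array for the 16 genes of smallest p whose 8 CR and Tg arrays lie apart from the 4 AL arrays, with the log2 signal minus the mean of the AL arrays on the x axis. CR points (squares) lie further from AL than all Tg points (triangles) for Grb14, Arhgap30, Ramp1, Ptprc, Tm6sf1, Fmnl1, Oxnad1 and Trpt1. CR and Tg points lie at about the same distance for Itgb2, Acsm1 and Rbpms2.

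Gene lists placed these single genes in groups; each gene was read from its brightest probe set. Over all 12111 named genes, 29.8% were higher in both groups and 34.4% lower in both, 3.49% were higher and 6.64% lower in both at an unadjusted p under 0.05, and the median combined difference was -0.01. No member of any list passed the adjusted threshold in the combined comparison or in Tg alone. Counts at an unadjusted p under 0.05 rest on the combined value, which a change in CR can carry. They do not by themselves show a change in Tg.

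Macrophage genes were lower in both groups for 23 of 29 members and higher in both for 0, with a median of -0.43 in CR and -0.16 in Tg. At an unadjusted p under 0.05, 17 of the 29 (58.6%) were lower, and 9 fell past the adjusted threshold in CR, where 1.06% of named genes did. Without CR3, CR4 and Tg1, a setting tried for the lists after seeing the data, 20 were lower in both, 13 at an unadjusted p under 0.05, and 1 fell in CR. Leaving out 1 array left 2 to 9 past the threshold in CR, with 2 when AL4, CR1 or CR2 was out. The whole list averaged 10.45 to 10.70 on the AL arrays, 9.96 to 10.21 on CR and 10.24 to 10.56 on Tg, so the Tg arrays overlapped AL. Fewer macrophages and less RNA per macrophage cannot be told apart in whole tissue.

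Cd68, a lysosomal glycoprotein of macrophages, read 10.65, 10.47, 10.88 and 10.77 in AL, 10.12, 10.04, 10.02 and 10.03 in CR and 10.46, 10.44, 10.57 and 10.43 in Tg. CR was below every other array, while Tg3 was above AL2. Cd68 fell by 0.64 in CR (adjusted p 0.00678) and was at -0.21 in Tg. CR and Tg differed by -0.43 (adjusted p 0.0338, or 0.0546 with same-numbered arrays paired). Spp1, the secreted matrix protein osteopontin, was at -1.09 in CR and -0.69 in Tg, and Cd53, a leukocyte tetraspanin, at -0.63 and -0.33 with all 8 arrays below AL. Not every member was lower in Tg: Cybb, the catalytic subunit of the phagocyte oxidase, was at -0.64 in CR and 0.06 in Tg.

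**Figure D2:**
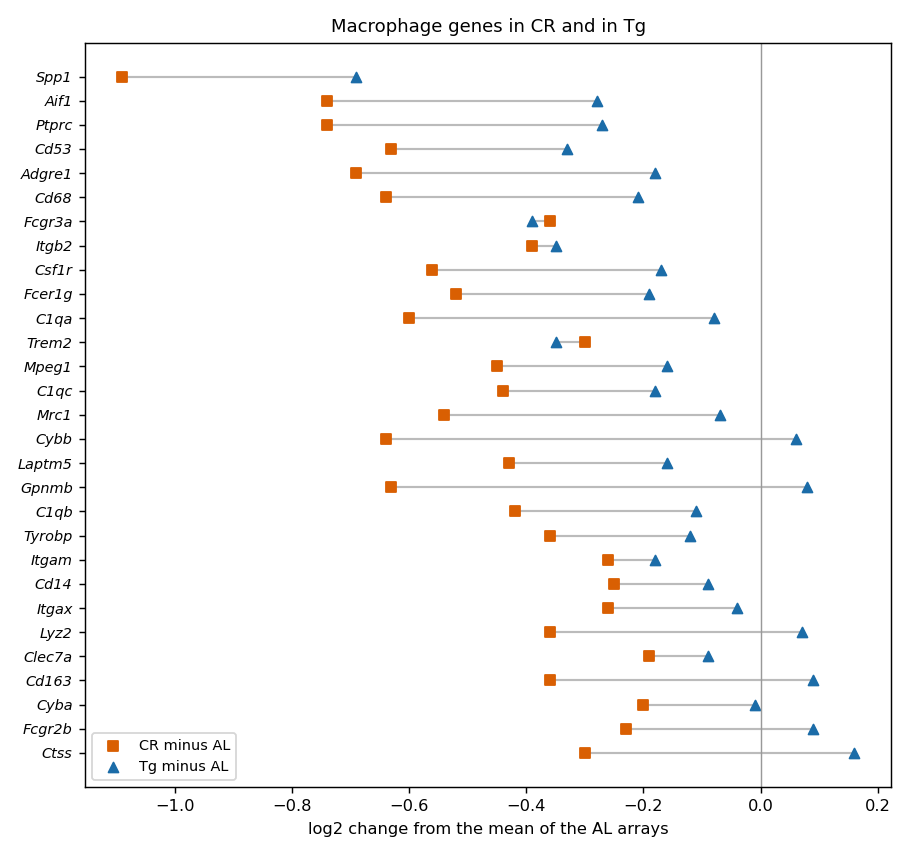
The log2 change from the mean of the AL arrays is plotted for each of 29 macrophage genes in CR (squares) and in Tg (triangles), joined by a line. 23 genes lie to the left of 0 in both groups, and the median is -0.43 in CR and -0.16 in Tg.

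Other blood-cell lists were lower in part. Of 21 lymphocyte genes, 13 were lower in both groups and 4 at an unadjusted p under 0.05. Spn, the sialophorin CD43 of lymphoid and myeloid cells, read 9.27, 9.59, 9.55 and 9.63 in AL, 9.02, 9.02, 9.35 and 8.83 in CR and 8.78, 9.04, 9.05 and 9.06 in Tg. Only CR3 stood above the lowest AL array, and the differences were alike, -0.46 in CR and -0.53 in Tg (combined adjusted p 0.186). Ltb, a cytokine of the tumour necrosis factor family that shapes lymphoid tissue, and Ciita, the coactivator of MHC class II genes, were at -0.33 and -0.41 with all 8 arrays below AL. Ciita belongs to a list of 27 MHC class II and interferon genes, of which 18 (66.7%) were lower in both and 1 (3.7%) at an unadjusted p under 0.05. Among 25 chemokines and receptors 13 were lower in both and 8 at an unadjusted p under 0.05, and Ccl9 fell by 1.15 in CR (adjusted p 0.0186) beside -0.44 in Tg.

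Cxcl13, which draws B cells, went the other way. It read 8.57, 8.96, 9.43 and 8.66 in AL, 9.31, 9.04, 9.42 and 9.85 in CR and 9.65, 10.01, 9.98 and 9.86 in Tg. All 4 Tg arrays were above AL, while CR overlapped it. The difference was 0.97 in Tg (adjusted p 0.413) and 0.50 in CR.

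Endothelial genes were lower in both groups for 18 of 20 members, with a median of -0.36 in CR and -0.26 in Tg, and 9 (45%) were lower at an unadjusted p under 0.05. Pecam1, the adhesion molecule CD31 of endothelial junctions, read 10.90, 10.65, 11 and 10.88 in AL, 10.51, 10.30, 10.76 and 10.21 in CR and 10.59, 10.32, 10.59 and 10.23 in Tg. Only CR3 was above the lowest AL array, and the difference was -0.42 in CR and -0.42 in Tg (combined adjusted p 0.245). Eng, a coreceptor for transforming growth factor beta on endothelium, was at -0.33, with -0.35 and -0.31. None of the 20 passed in CR alone. The count at an unadjusted p under 0.05 was 12 without CR3, CR4 and Tg1, and 4, without AL4, to 14, without CR3, when 1 array was left out.

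Immediate early genes, which respond within minutes to growth factors and stress, were lower in both for 23 of 27 members, 11 (40.7%) of them at an unadjusted p under 0.05. That count was 12 without CR3, CR4 and Tg1, and 5, without AL4, to 13, without CR3, when 1 array was left out. Atf3, a stress-induced transcription factor, read 8.12, 7.96, 7.96 and 8.02 in AL, 6.81, 7.41, 7.06 and 7.48 in CR and 7.72, 7.72, 7.81 and 7.66 in Tg. The groups did not overlap. Atf3 fell by 0.83 in CR (adjusted p 0.0189) and was at -0.29 in Tg. Klf6, a zinc-finger transcription factor, fell by 0.55 in CR (adjusted p 0.0385), with -0.22 in Tg. A Jun probe set, named after its values were seen, had a combined difference of -0.55 (adjusted p 0.0527). It was at -0.81 in CR (adjusted p 0.00314) and -0.30 in Tg, and CR and Tg differed (adjusted p 0.0192). The brightest Jun probe set was at -0.37 combined (adjusted p 0.362). Another was at -0.44 (adjusted p 0.191) with all 8 arrays below AL.

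Matrix genes were lower in part. Of 33 fibroblast and matrix genes 16 were lower in both, with a median of -0.27 in CR and 0.02 in Tg, and Sparc, a collagen-binding matrix protein, was at -0.37 and -0.22. The cytokine gene Tgfb1 fell by 0.44 in CR (adjusted p 0.0322) beside -0.21 in Tg, and Cfp, the complement protein properdin, by 0.73 (adjusted p 0.0234) beside -0.20.

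Among genes of lipid synthesis, those that rose in CR were mainly of the lipogenesis list. Fasn, fatty acid synthase, read 12.42, 12.14, 11.78 and 12.48 in AL, 14.64, 14.58, 15.04 and 14.20 in CR and 12.36, 12.10, 11.97 and 12.02 in Tg. The Tg arrays lay inside the AL range and the CR arrays far above both. Fasn rose by 2.41 in CR (adjusted p 0.000418) and was at -0.09 in Tg, and CR exceeded Tg by 2.50 (adjusted p 0.000284). The combined value of 1.16 (adjusted p 0.0686) is thus the average of a large change and of none detected, and the opposite signs keep Fasn off the shared side. Acaca, which makes the malonyl-CoA that Fasn uses, rose by 2.25 in CR (adjusted p 0.000558) and was at -0.08 in Tg, with a CR minus Tg difference of 2.33 (adjusted p 0.000381).

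Of 20 lipogenesis genes 12 rose in CR, where 0.669% of named genes did, and the same number differed between CR and Tg, against 1.41% of named genes. Their median was 1.32 in CR and 0.00 in Tg. By sign 10 of the 20 were higher in both groups, 8 (40%) of them at an unadjusted p under 0.05, so that count was reached with a Tg median of 0.00. Without CR3, CR4 and Tg1, 11 rose in CR and 10 differed between CR and Tg. With 1 array left out, 6 to 12 rose, with 6 when AL4, CR1 or CR2 was out, and 5, without Tg2, to 13 differed between CR and Tg. The glucose transporter gene Slc2a4 rose by 1.16 in CR beside -0.10 in Tg, Gpam, which starts glycerolipid synthesis, by 1.69 beside 0.02, and Pdhb, a pyruvate dehydrogenase subunit, by 1.11 beside -0.01, with CR minus Tg past the threshold for all 3 (adjusted p 0.0106 to 0.0192). Pdp2, the phosphatase that activates that enzyme, rose by 0.69 beside 0.11, and its CR minus Tg difference of 0.57 had an adjusted p of 0.0313, or 0.0642 with same-numbered arrays paired. Of 20 cholesterol synthesis genes 4 rose in CR and 3 differed between CR and Tg, with a median of 0.58 in CR and -0.03 in Tg. Of 21 triglyceride synthesis and storage genes 1 rose in CR and 3 differed between CR and Tg. The cholesterol genes Msmo1 and Acat2 rose in CR by 0.50 and 0.69 and were at 0.11 and 0.19 in Tg. Angptl4, the inhibitor of lipoprotein lipase, fell by 1.93 in CR (adjusted p 0.0167) and was at 0.11 in Tg, and CR minus Tg was -2.04 (adjusted p 0.0121, or 0.0561 with same-numbered arrays paired).

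**Figure D3:**
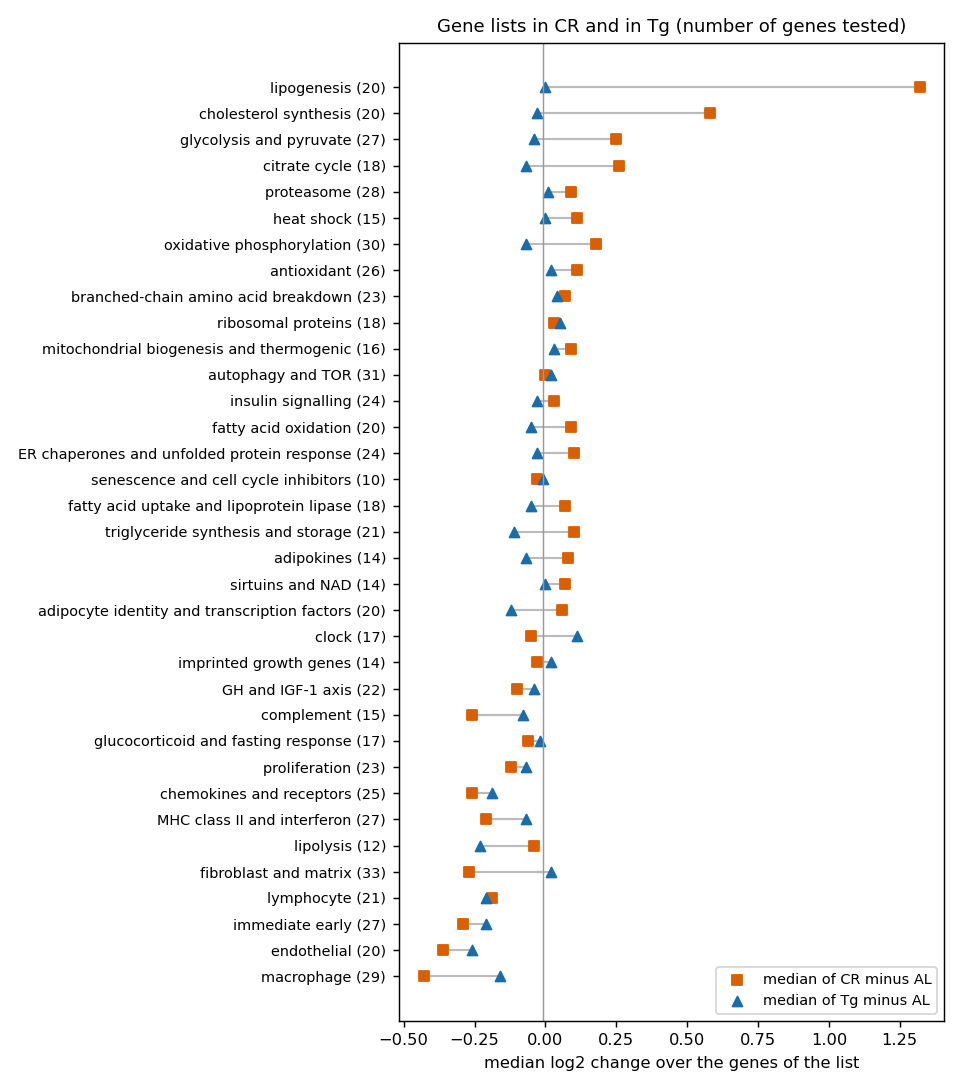
For each gene list shown the median log2 change over its tested genes is plotted for CR (squares) and Tg (triangles). Lipogenesis has the widest gap, 1.32 in CR against 0.00 in Tg, while the macrophage, endothelial and immediate early lists lie below 0 in both groups.

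Of 22 GH and IGF-1 axis genes 9 (40.9%) were lower in both groups and 5 were higher in both. At an unadjusted p under 0.05, 5 (22.7%) were lower, and none passed the adjusted threshold in CR or Tg. Igf1 read 13.66, 13.89, 13.96 and 13.80 in AL, 13.21, 13.33, 13.17 and 13.58 in CR and 13.38, 13.79, 13.70 and 13.67 in Tg. All CR arrays were below AL, whereas 3 of the Tg arrays lay inside the AL range. The difference was -0.50 in CR (adjusted p 0.0567) and -0.19 in Tg (adjusted p 0.827). The other Igf1 probe sets were at -0.53 and -0.72 in CR and at -0.15 and 0.14 in Tg. Ghr was at -0.33 (SE 0.14, adjusted p 0.444), with -0.28 in CR and -0.38 in Tg, and -0.11 on its other probe set. Socs2, a feedback inhibitor induced by GH, was at -0.09 (adjusted p 0.852), with -0.19 in CR and 0.00 in Tg. Its combined sign turned when AL4 was left out.

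Of 20 adipocyte identity genes 9 (45%) were lower in both groups and 2 higher in both, and 3 (15%) were lower at an unadjusted p under 0.05. Ebf1, a transcription factor of fat cells, was at -0.60 in CR and -0.38 in Tg (combined adjusted p 0.338). Adipoq was at -0.02 (SE 0.10) and Pparg, the master regulator of fat cells, at 0.09 (SE 0.25), and both signs turned when single arrays were left out. Lep was at 0.05 in CR and -0.35 in Tg. Of 12 lipolysis genes 0 were higher in both, 6 were lower in both and 0 had an unadjusted p under 0.05. Ppargc1a, a coactivator of mitochondrial biogenesis, was at 0.82 in CR and 0.58 in Tg (SE of the combined value 0.27, adjusted p 0.416), and Aldh6a1, of valine breakdown, at 0.35 and 0.49. Of 18 ribosomal protein genes 12 were higher in both with a median of 0.05, and of 30 oxidative phosphorylation genes 8 were higher in both, with 0.18 in CR and -0.07 in Tg.

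No marker list passed in the comparison of the 8 arrays with AL. Over 14 lists the two-sided exact permutation test on the array means, over all splits of the 12 arrays, gave adjusted p from 0.212 to 0.747. The macrophage list differed by -0.31 and the endothelial list by -0.29. Duct epithelium genes averaged above 10 on CR2, CR4, Tg2 and Tg4, 9.68 on AL3 and 7.26 to 7.72 on the other AL arrays. By sign 9 of 9 duct epithelium genes were higher in both groups (median combined difference 0.82), 1 of them at an unadjusted p under 0.05. Of 9 spermatid genes 8 were lower in both (median -1.53), 0 of them at an unadjusted p under 0.05. The part of both lists in the results was not tested beyond the fit with them as covariates. With the levels of the spermatid and duct epithelium lists as covariates, 67 probe sets (0.288% of those tested) passed as higher and 68 (0.292%) as lower. Of those, CR also differed from Tg at 56 and at 28. The medians of the higher ones were 0.95 in CR and 0.21 in Tg, and of the lower ones -0.63 and -0.34.

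**Figure D4:**
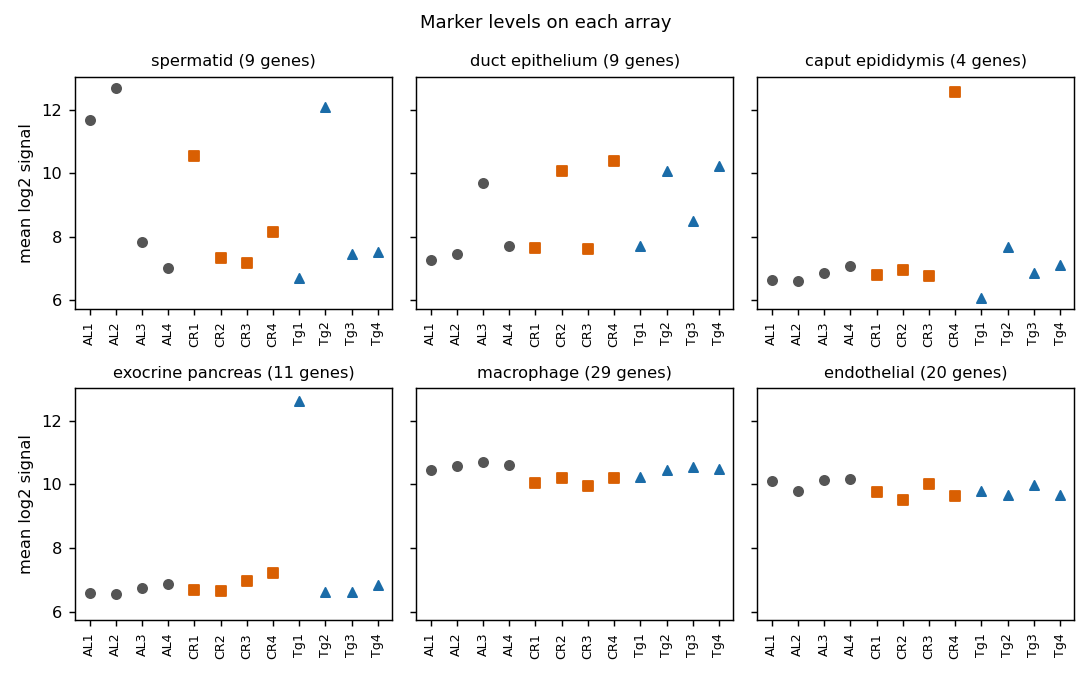
The mean log2 level of 6 marker lists is plotted for each of the 12 arrays. Pancreas genes are high on Tg1 (12.64), caput epididymis genes on CR4 (12.54) and spermatid genes on AL1, AL2, CR1 and Tg2, while macrophage genes lie between 9.96 and 10.70 throughout.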

How the data were processed

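Total RNA of epididymal white fat was measured on Affymetrix rat arrays, 4 per group. The authors deposited a linear intensity per probe set and a z-score (a score per probe) for each array; a further table holds, per the file headers, the background of each array with its log10 mean and SD. Undoing the z-scores with these gave whole numbers, within 0.01, for the values under 5000, which were those examined, so the deposited score was read as the log10 of a background-subtracted intensity, centred and scaled by array. No source used here says how the intensity was summarised. Intensities under 1 were set to 1 and log2 taken, with no further normalization. Of 31099 probe sets, 57 controls were left out and those with a mean above the 25th percentile, 23281, were tested, as no detection calls were given. The platform annotation named 20826 with 1 symbol, 436 with several and 9780 with none. Different probe sets of a gene were not averaged: the brightest was named.

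limma 3.58.1 in R 4.3.3 fitted 3 group means over 12 arrays with a mean-variance trend, and the contrast was the mean of CR and Tg minus AL, with Benjamini-Hochberg adjustment over all tested probe sets and an adjusted p under 0.05. All limma tests were two-sided. The fit was tested on simulated data. The members, gene lists and tests were chosen with earlier results of these data known. Genes named were, where none passed, the 8 of smallest p per direction whose 8 arrays lie apart from AL, up to 2 members of smallest p per list (4 past the threshold), and 10 chosen whatever their values. Not all of the 46 lists are described. The labels call the samples biological replicates. Titles number replicates 1 to 4 in each group and state no pairing. Same-numbered CR and Tg arrays deviated together (r 0.32 to 0.62 over probe sets), while same-numbered pairs with AL gave r from -0.49 to 0.49. Pairing was tried only in alternative settings. These were a replicate block over all 12 arrays, means of same-numbered CR and Tg arrays, and the CR and Tg arrays alone with the block. Differently numbered arrays were not compared, so these values cannot show that arrays were paired. Duct epithelium genes were high on CR2, CR4, Tg2 and Tg4, and their part in these r values was not tested.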

Additional observations from a re-analysis of the deposited data

Results flagged for a closer look

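Of 207 groups of 4 arrays examined over 55 named genes and the marker lists, 13 held an array far from the other 3, and chance gives about 1 in 20. Among genes these were Pdgfc on AL1 (8.24, others 8.51 to 8.54), Fads1 on Tg1 (10.60, others 10.32 to 10.35), Rbpms2 on Tg4 (9.75, others 9.61 to 9.63), Fmnl1 on AL2 (9.68, others 9.89 to 9.90), Adipoq on CR3 (14.99, others 14.68 to 14.70), Spn on Tg1 (8.78, others 9.04 to 9.06), Ltb on AL1 (7.74, others 7.96 to 7.99), Nmnat3 on CR3 (8.68, others 8.31 to 8.36), Mki67 on AL2 (8.70, others 7.69 to 7.74) and Cpa1 on Tg1 (12.38, others 7.90 to 8.39). Among marker lists they were spermatid genes on Tg2 (12.08), caput epididymis genes on CR4 (12.54) and pancreas genes on Tg1 (12.64).

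For 10 named genes CR and Tg differed from each other past an adjusted p of 0.05 in limma. CR was lower than Tg for Grb14 (-0.87), Ptprc (-0.47), Angptl4 (-2.04) and Cd68 (-0.43), and higher for Fasn (2.50), Acaca (2.33), Gpam (1.67), Slc2a4 (1.26), Pdhb (1.12) and Pdp2 (0.57).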

How the results depend on the processing

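The count of shared differences stayed at 0 in both directions with quantile normalization, no filter, log2(value + 16), 2 group means, the description code as a random block, no variance trend, the replicate block, and, chosen after seeing the data, means of same-numbered CR and Tg arrays. Higher and lower counts were 8 and 11 with array weights, 67 and 68 with the spermatid and duct covariates, and 2 and 1 without CR3, CR4 and Tg1. Lower calls alone appeared with median polish (4), arrays centred on their medians (3) and a 50th percentile filter (3). Leaving out 1 array gave 0 to 11 higher and 0 to 7 lower, the most without CR4. CR against AL gave 203 without a filter, 150 with the replicate block, 780 with array weights, 221 without the trend, 1600 with covariates, 81 without the 3 arrays and 44 to 283 without 1 array. Tg against AL gave 2 with median polish and 0 to 2 without 1 array. Probe sets with all arrays above AL numbered 38 with the 50th percentile filter, 193 without the 3 arrays and 79 to 457 without 1, the most without AL3; those below, 283 and 122 to 383, the most without AL2. The 10 named genes that differed between CR and Tg became 16 with array weights, 19 with covariates and 4 to 12 without 1 array. With the replicate block they were 7 over all arrays and 5 with CR and Tg alone. Marker lists gave 0 in each alternative run. Signs turned for 3 genes: Socs2 ranged from -0.28 to 0.02 without 1 array (0.02 without AL4), Adipoq from -0.06 to 0.07 (0.07 without AL2, 0.01 without Tg4; 0.01 with array weights and 0.06 with covariates) and Pparg from -0.09 to 0.22 (-0.09 without AL3, -0.02 without Tg1). Grb14 passed in 7 of 26 alternatives (adjusted p 0.00348 to 0.72) and Arhgap30 in 5 (0.00887 to 0.72). The causes were not tested, and fewer arrays leave fewer values to overlap.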

Other observations

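Cpa1, a digestive carboxypeptidase of the pancreas, was chosen after its values were seen. It read 10.12, 10.36, 9.61 and 10.14 in AL, 7.68, 7.04, 8.10 and 7.25 in CR and 12.38, 7.92, 8.39 and 7.90 in Tg. All arrays of CR and Tg other than Tg1 lay below AL. The pancreas list, Cpa1 included, averaged 12.64 on Tg1 and 6.62 to 6.85 on the other Tg arrays. Most of the list did not share the order of Cpa1: of 9 genes tested 7 were higher in both groups, and the 1 lower in both was Cpa1 itself. Cela1 was at 1.12 in CR and 2.10 in Tg (combined adjusted p 0.41) and read 12.90 on Tg1. The combined difference of Cpa1 was -1.73 (SE 0.70, adjusted p 0.444) with Tg1, and without Tg1 it was -2.27 (limma adjusted p 0.0117), with -2.54 in CR and -1.99 in Tg. Tg1 held the only CR or Tg value of Cpa1 above AL. Leaving it out removes the contrary value, so the adjusted p without Tg1 gives no support for a fall in Tg. Il6st, the gp130 signalling chain of the interleukin-6 receptor family, was also chosen after its values were seen. Its combined difference was -0.47 on a pair of its probe sets (adjusted p 0.0742 and 0.0832). This pair was at -0.66 and -0.63 in CR (adjusted p 0.00484 and 0.00766) and at -0.28 and -0.32 in Tg. The adjusted p for CR against Tg was 0.0446 and 0.0964. Il6st was at -0.26 combined on the brightest probe set (adjusted p 0.205) and at -0.18 on the other (adjusted p 0.695).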
